A study of Mus musculus with 23 samples.

Results

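The genes described here are immediate early genes and heat shock genes, chosen by name. Every row of the deposited expression table whose gene symbol is on a list of 31 such genes was taken, and all 31 were found among the 21264 genes of the table. The list holds 8 genes of the AP-1 family (Fos, Fosb, Fosl1, Fosl2, Jun, Junb, Jund and Atf3) and 7 further transcription factor genes (Egr1, Egr2, Egr3, Klf4, Klf6, Nr4a1 and Myc). It also holds 8 feedback and growth control genes (Ier2, Ier3, Ier5, Dusp1, Btg1, Btg2, Zfp36 and Socs3), 7 heat shock protein genes (Hspa1a, Hspa1b, Hspa8, Hspb1, Hsph1, Dnajb1 and Dnaja1) and Herpud1, a gene of the endoplasmic reticulum stress response.

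As background, immediate early genes are transcribed within minutes of a stimulus from factors that are already present in the cell, such as serum response factor and CREB. Their products include the Fos and Jun proteins, which pair to form the AP-1 factor, and inhibitors that end the response, such as the phosphatase Dusp1. Heat shock genes are driven by heat shock factor when unfolded proteins accumulate. Their products fold or refold proteins: the HSP70 proteins (Hspa1a, Hspa1b and the constitutive Hspa8) work with HSP40 co-chaperones (Dnajb1, Dnaja1) and with the HSP110 protein Hsph1, while the small heat shock protein Hspb1 holds unfolded proteins. In muscle, both classes are known to respond when cells are taken from the tissue.

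RNA was sequenced from 23 libraries of iPax3 cells, a mouse embryonic stem cell line in which inducing Pax3, which directs cells to the muscle lineage, yields myogenic progenitors. In culture there were 4 control libraries (wild type) and 3 N1OE libraries, in which the progenitors overexpress NICD1, the intracellular and active part of the Notch1 receptor. Donor-derived satellite cells, that is, muscle stem cells recovered after engraftment, were sequenced in 9 control (wild type), 4 N1OE and 3 N1KO libraries, the last with a Notch1 knockout. All groups share the iPax3 line. The promoter that drives NICD1, the number of clones, the recipient mice and whether replicates were separate cultures or animals are not given in the sources used here, and p-values therefore cover the spread of these libraries alone, which may be technical. Cultured and re-isolated cells were extracted and made into libraries with different kits, so setting and kit cannot be told apart. In bulk RNA, fewer cells of a type and less RNA per cell cannot be told apart either.

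Libraries held 11637817 to 29154176 reads in the listed genes. Gene levels stand in CPM (reads of a gene scaled to a library of fixed size), without correction for gene length. The label check was uneven. Pax7, which marks satellite cells, lay at 11.5 to 154 CPM in the re-isolated and at 0 to 0.891 CPM in the cultured libraries. Notch1 lay at 297 to 370 CPM in cultured N1OE against 61.3 to 105 in cultured controls, and at 98.1 to 257 in re-isolated N1OE against 15.6 to 52.6 in N1KO. The 9 re-isolated controls fall into 2 sets by a mark, GoF, in their column headers, which the labels do not explain: 5 libraries carry it (replicates 1, 4, 7, 8 and 9) and 4 do not (replicates 2, 3, 5 and 6). Notch1 lay at 14.9 to 88.9 CPM in the marked and at 136 to 174 CPM in the unmarked set, so the lowest marked control was below every N1KO library. The unmarked range lay within that of re-isolated N1OE. The sample descriptions carry the same mark except for control 7. The mark also stands on all 4 cultured controls and on cultured N1OE library 1, and on no other N1OE or N1KO library. Because an earlier analysis of these data had found the sets to differ, each comparison with re-isolated controls is also given within each set. Cultured N1OE libraries 2 and 3 were far closer to each other (chi-square per degree of freedom of 3.31) than to library 1 (29.7 and 35.0).

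The 31 genes took a far larger share of the reads after re-isolation than in culture. Their summed share was 0.336 to 0.392% of a library's reads in the 4 cultured controls and 0.320 to 0.336% in the 3 cultured N1OE libraries. It was 1.63 to 5.51% in the 9 re-isolated controls, with a median of 3.92%, 4.40 to 8.28% in the 4 re-isolated N1OE libraries and 4.27 to 5.66% in the 3 N1KO libraries. The cultured and re-isolated ranges do not overlap. The heat shock genes alone took 0.226 to 0.266% in culture. After re-isolation their share was 0.317 to 1.59% in the controls, 1.52 to 2.89% in N1OE, and 0.654 to 1.06% with the knockout. The heat map of levels shows this split between the left 7 and the right 16 libraries for most rows.

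**Figure D1:**
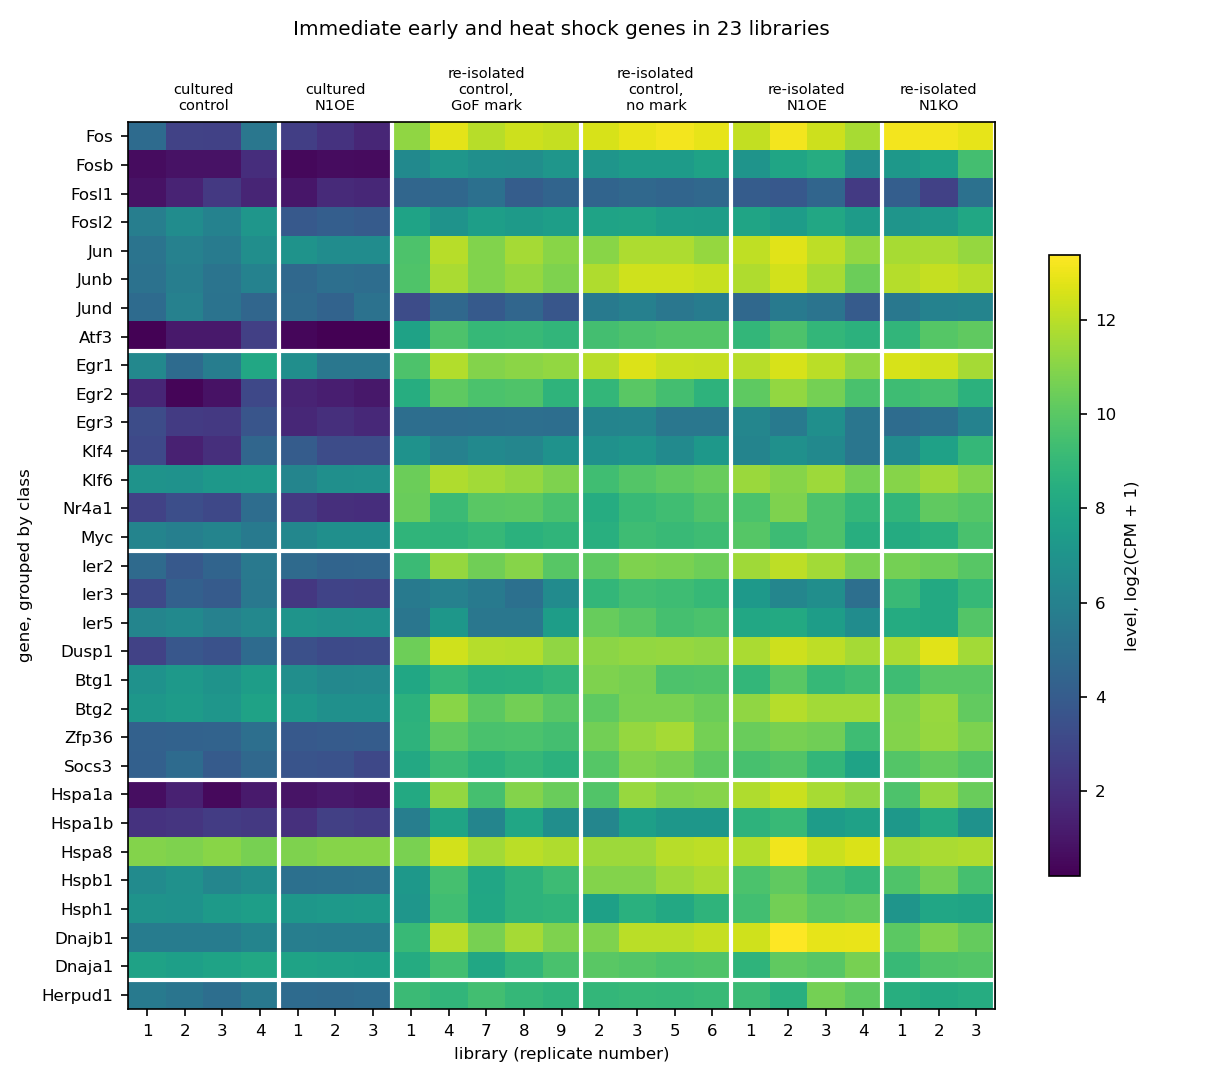
Level of each of the 31 genes (rows, grouped by class and separated by white lines) in each of the 23 libraries (columns, by replicate number), as log2(CPM + 1) on the colour scale. Rows such as Fos, Atf3 and Hspa1a are dark in the 7 cultured libraries and bright in the 16 re-isolated ones, while Hspa8 is bright throughout and Jund differs little.

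Re-isolated controls were compared with cultured controls, all of them wild type. Of the 31 genes, 29 rose and none fell past an adjusted p of 0.05 (limma on log2 CPM, Benjamini-Hochberg over all genes tested). Of all 13731 genes tested, 58.1% were called, 24.1% higher and 33.9% lower. The median log2 difference of the 31 genes was 4.23, against -0.23 over all genes. The median of all genes moved to 0.03 under median ratio scaling, with a median of 4.48 for the list. There 29 of the 31 genes were still called higher, and 29.5% of all genes. In 24 of the 31 genes every re-isolated control lay above every cultured control, as in 14.2% of all genes, and the same 24 genes did so when all 16 re-isolated libraries were set against all 7 cultured ones, as in 8.8% of all genes. None lay the other way, against 24.7% and 16.9% of all genes.

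Among the AP-1 genes, 7 of 8 rose. Fos lay at 26.7, 5.89, 5.85 and 42.2 CPM in cultured controls 1 to 4, and at 2341 to 8943 CPM with a median of 6059 in the 9 re-isolated controls. The log2 difference was 8.64 ± 0.50 (SE, n = 9 and 4, adjusted p = 6.55e-09). The lowest re-isolated control was thus far above the highest cultured one. Atf3, a stress-induced repressor and activator of the ATF family, lay at 0.230, 1.11, 1.16 and 5.41 CPM in cultured controls against 222 to 906 CPM, a log2 difference of 8.96 ± 0.56 (adjusted p = 1.16e-08). Jun lay at 37.6, 62.4, 49.5 and 104 CPM against 842 to 4042 CPM (5.34 ± 0.38, adjusted p = 3.63e-08). Junb, a Jun protein that also restrains Jun, lay at 34.7, 55.6, 37.5 and 66.0 CPM against 859 to 5482 CPM (5.93 ± 0.44, adjusted p = 5.5e-08). Both pairs of ranges are apart. Fosb rose by 7.01 and Fosl1 by 3.52 in log2. Fosl2 rose least, by 1.19 ± 0.24 (adjusted p = 0.000634), from 55.4, 97.9, 65.2 and 139 CPM to 126 to 241 CPM, with ranges that overlap. Jund, the Jun gene known for steady expression, was not called: 27.2, 61.6, 35.8 and 22.2 CPM in culture stood against 8.71 to 60.6 CPM (-0.39 ± 0.50, adjusted p = 0.515).

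All 7 of the other transcription factor genes rose. Egr1, a zinc finger factor and the usual marker of serum response, lay at 81.4, 27.2, 55.1 and 273 CPM in the 4 cultured controls and at 831 to 6576 CPM in the 9 re-isolated ones (5.30 ± 0.57, adjusted p = 1.99e-06). The cultured values of Egr1 spread widely, with library 4 highest. Egr2 rose by 8.74 and Egr3 by 2.53 in log2. The orphan nuclear receptor gene Nr4a1 rose by 6.13, Klf4 by 4.23, Klf6 by 3.52 and Myc by 3.0. Klf4 lay at 7.77, 1.64, 2.88 and 22.8 CPM in culture and at 62.5 to 149 CPM after re-isolation. Klf6 lay at 124, 118, 147 and 161 CPM in culture and at 638 to 3599 CPM after re-isolation. For each of these genes the re-isolated libraries were all above the cultured ones.

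Of the feedback and growth control genes 7 of 8 rose. Dusp1, which inactivates MAP kinases, rose by 7.80 ± 0.38 in log2 (adjusted p = 1.64e-09), from 5.93 to 27.0 CPM in culture to 1419 to 5512 CPM. Zfp36, which binds AU-rich mRNAs and speeds their decay, lay at 18.9, 19.1, 20.2 and 30.8 CPM against 414 to 3075 CPM (5.72 ± 0.44). Socs3, an inhibitor of cytokine signalling, lay at 18, 27.4, 15 and 24 CPM against 285 to 1871 CPM (5.09 ± 0.45). Btg1 and Btg2, related antiproliferative genes, rose by 2.15 and 2.88, and Ier2 and Ier3 by 5.84 and 3.14. Ier5 was not called, at 73.3, 86.1, 63.3 and 81.8 CPM in culture against 40.7 to 1250 CPM (1.56 ± 0.92, adjusted p = 0.158). The spread of Ier5 follows the control sets described below: within the marked set 28 genes rose and 1, Jund, fell (-1.16 ± 0.38, adjusted p = 0.0202), where 62.8% of all genes were called, 25.3% higher and 37.5% lower. Within the unmarked set 30 rose, Ier5 among them (3.61 ± 0.21), and none fell, where 65.8% were called, 27.8% higher and 37.9% lower.

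All 7 heat shock genes were called higher, by amounts that differ widely. Hspa1a lay at 0.643, 1.64, 0.464 and 1.19 CPM in cultured controls and at 294 to 2634 CPM with a median of 1896 in re-isolated controls, a log2 difference of 10.46 ± 0.51 (adjusted p = 1.64e-09). It was the largest of the list on the deposited scale but not with log2(CPM + 5), where Hspa1a differed by 7.80 and Fos by 8.10. The cultured level of Hspa1a is near 1 CPM, so its difference depends on the value added. Hspa1b lay at 3.45, 3.73, 4.83 and 4.28 CPM against 57.1 to 251 CPM (4.93 ± 0.37, adjusted p = 6.16e-08). Dnajb1 lay at 52.7, 52.5, 53.0 and 68.8 CPM against 543 to 4777 CPM (5.43 ± 0.47, adjusted p = 2.3e-07). These inducible genes were near a floor or at a steady low level in culture. Hspb1 lay at 92.3, 114, 74.2 and 99.5 CPM against 148 to 3338 CPM (3.19 ± 0.71). The constitutive Hspa8 lay at 1967, 1820, 2126 and 1641 CPM against 1679 to 5707 CPM, and its difference of 0.85 ± 0.33 (adjusted p = 0.0386) was lost in 12 of 22 other settings, without each cultured control and without re-isolated controls 4, 5, 6, 8 or 9 among them (highest adjusted p = 0.358, with replicate numbers as a block). Dnaja1 and Hsph1 rose by 1.42 and 1.14. Herpud1 rose by 3.69 ± 0.18, from 30.3 to 49.2 CPM to 440 to 666 CPM. The plot of log2 differences orders the list from Hspa1a to Jund.

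**Figure D2:**
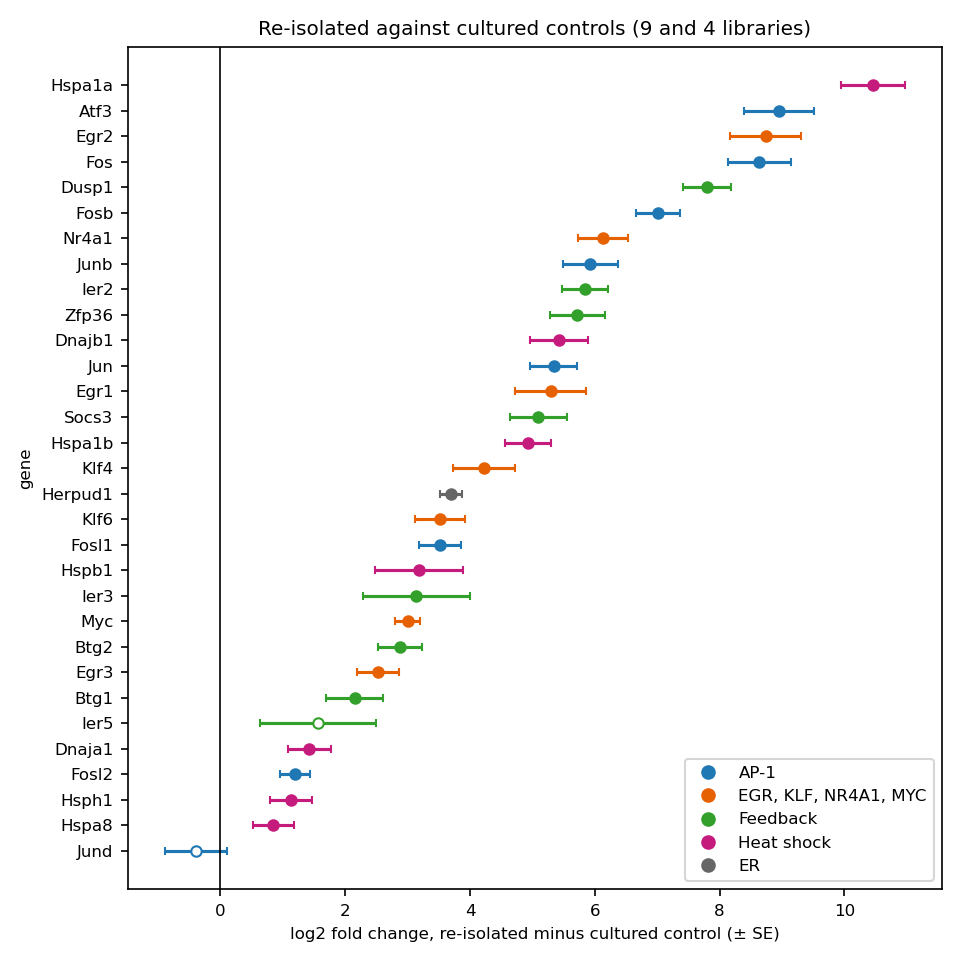
Log2 difference between 9 re-isolated and 4 cultured control libraries (horizontal axis, limma estimate with its standard error as bars) for each of the 31 genes (rows, coloured by class). Filled points passed an adjusted p of 0.05 and open points (Ier5 and Jund) did not; the values run from -0.39 for Jund to 10.46 for Hspa1a.

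Other genes of these pathways were read beside the shares of all genes called in this comparison, 24.1% higher and 33.9% lower. Of 39 tested further immediate early genes 26 rose and 3 fell, with a median of 2.50: the chemokine gene Cxcl1 rose by 6.13, Ppp1r15a, a phosphatase subunit of the stress response, by 4.83, the NF-kappaB inhibitor gene Nfkbia by 4.09 and the kinase gene Sgk1 by 3.98. Of 21 other heat shock factor targets and chaperones 5 rose, near the share of all genes, and 4 fell, with a median of 0.18. The ubiquitin gene Ubb rose by 2.68, the co-chaperone Bag3 by 1.86 and the small heat shock protein Cryab by 1.52. The mitochondrial chaperone Hspd1 fell by 1.18. Of 19 unfolded protein response genes 13 rose and 1 fell, with Xbp1 at 3.34, the endoplasmic reticulum chaperone Hspa5 at 3.33, Creld2 at 2.84 and Hyou1 at -1.77. Of 12 upstream regulators 1 rose and 9 fell: Srf, the serum response factor gene, by 4.60, its coactivators Mrtfa by 1.75 and Mrtfb by 1.74, and Elk1 by 2.02. These are RNA levels of the regulators, not their activity, and their part in the result was not tested.

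Markers of other cells moved with this comparison. Of 8 macrophage markers 7 rose, with summed levels of 3.08 to 11.6 CPM in cultured controls and 45.8 to 661 CPM in re-isolated ones. Adgre1, C1qa and C1qb were at 0 in all 7 cultured libraries. Of 7 fibro-adipogenic markers 6 rose, from 42.6 to 274 CPM in sum to 232 to 9946 CPM. Of 9 mitochondrially encoded genes 5 fell, from 32131 to 37559 CPM in sum to 4326 to 20255 CPM. Their part in the result was not tested.

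For 25 of the 31 genes RefSeq (GRCm38.p6) gave the 250 bases before and 50 after a transcription start. These genes had 33 such windows, with 5 for Egr2 and 3 for Dnaja1. A gene was counted as holding a motif when any of its windows did, here and over all genes. Short motifs were counted there on both strands, and the share of all 16411 genes of the table with such a window that hold the motif is given beside each. A pair of facing heat shock units, GAANNTTC or TTCNNGAA, stood near 5 of the 6 heat shock genes with a window (Dnaja1, Hspa1a, Hspa1b, Hspb1 and Hsph1, but not Dnajb1) and near 8 of the 25 in all, against 15.9% of all genes. The full heat shock element, which extends the pair by 1 more facing unit (GAA or TTC) at the same spacing, stood near Hsph1 alone, against 0.597% of all genes. The sequences below show these units in capitals, with the RBPJ site GTGGGAA, the Notch effector's motif, also in capitals in Hspb1. Hspa1a is shown upstream of its start (chr17:34972207-34972306, minus strand), and the same bases of Hspa1b (chr17:34959289-34959388, minus strand) differ at 0 positions. Hspb1 is shown upstream of its start (chr5:135887739-135887838, plus strand) and Hsph1 just after its start (chr5:149636279-149636308, minus strand).
Hspa1a: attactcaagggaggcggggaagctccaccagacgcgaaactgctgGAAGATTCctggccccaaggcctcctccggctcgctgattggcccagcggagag
Hspb1: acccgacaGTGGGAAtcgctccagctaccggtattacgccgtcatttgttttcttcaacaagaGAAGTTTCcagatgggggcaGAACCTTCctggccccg
Hsph1: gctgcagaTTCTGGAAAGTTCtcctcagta
Hspb1 was the only one of the 25 with GTGGGAA, which 7.09% of all genes hold. A match is a description of these letters and shows no binding.

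Hspa1a and Hspa1b are near-identical neighbours on chromosome 17 (34969190 to 34972156 and 34956436 to 34959238, GRCm38). Their longest open reading frames hold 1926 and 1929 bases. Compared position by position from the start, without alignment, they differ at 36 of 1926 positions (98.1% identity). The split of reads between the copies is therefore uncertain and depends on the counting. The cyclic AMP response element TGACGTCA stood near Btg2 and Dusp1, 2 of the 25, against 2.63% of all genes. It is shown in capitals for both. Btg2 is shown upstream of its start (chr1:134079276-134079355, minus strand) and so is Dusp1 (chr17:26508573-26508652, minus strand).
Btg2: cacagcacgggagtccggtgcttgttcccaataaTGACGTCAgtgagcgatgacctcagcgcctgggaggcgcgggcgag
Dusp1: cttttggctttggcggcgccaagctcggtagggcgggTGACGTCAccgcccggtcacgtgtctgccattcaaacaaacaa
The serum response CArG box stood near Egr2, Herpud1 and Zfp36 (1.72% of all genes), the TATA box TATAAA near Btg1, Fos and Junb (14.2%), and the AP-1 site TGANTCA near none of the 25 (8.15%).

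The 2 sets of re-isolated controls differed in 10 of the 31 genes, 9 of them lower and 1 higher in the marked set. Of all 14155 genes 22.9% were called, 12.5% lower and 10.5% higher, and the median log2 difference was -0.59 for the list and -0.02 over all genes. In 11 genes every marked library lay below every unmarked one, as in 13.0% of all genes, and in 1, Klf6, every marked library lay above, as in 10.8%. Ier5, an immediate early gene whose product promotes the activity of heat shock factor, lay at 40.7, 143, 42.5, 41.4 and 184 CPM in marked controls 1, 4, 7, 8 and 9 and at 1250, 1008, 722 and 809 CPM in unmarked controls 2, 3, 5 and 6 (-3.69 ± 0.46, adjusted p = 9.4e-06). Ier3, an inhibitor of apoptosis, lay at 49.4, 63.2, 47.4, 32.1 and 93.7 CPM against 477, 662, 627 and 523 CPM (-3.40 ± 0.38, adjusted p = 2.49e-06). For both genes every marked library lay far below every unmarked one.

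Hspb1 was the heat shock gene that passed, at 148, 728, 253, 426 and 604 CPM in the marked and 1947, 1942, 2737 and 3338 CPM in the unmarked set (-2.71 ± 0.40, adjusted p = 7.56e-05). Its chaperone partners in the list did not pass. Dnaja1 lay lower in every marked library, at 265 to 761 CPM against 789 to 1020 CPM (-0.97 ± 0.37, adjusted p = 0.061), while Dnajb1 differed by -0.94 ± 0.47, Hspa1a by -0.70 ± 0.50 and Hsph1 by 0.10 ± 0.38. Of the AP-1 genes, Jund lay at 8.71, 24.3, 14.3, 22.1 and 12.2 CPM against 48.3, 60.6, 41.9 and 52.2 CPM (-1.72 ± 0.35, adjusted p = 0.0014), and Junb at 859, 3341, 1877, 2494 and 1796 CPM against 3593, 5482, 5472 and 4880 CPM (-1.34 ± 0.42, adjusted p = 0.0242). Both were lower in every marked library. Jun, at 842, 4042, 1881, 3146 and 2071 CPM against 2101, 3441, 3388 and 2505 CPM, overlapped (-0.41 ± 0.42), as did Fos, at 2341, 7285, 4043, 5356 and 4802 CPM against 6059, 7889, 8943 and 7480 CPM (-0.75 ± 0.40), and Atf3, at 222, 821, 523, 534 and 462 CPM against 697, 817, 906 and 905 CPM (-0.81 ± 0.35).

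Of the feedback genes 5 of 8 were lower in the marked set. Socs3 lay at 285, 573, 387, 503 and 406 CPM against 956, 1871, 1659 and 1091 CPM (-1.68 ± 0.36, adjusted p = 0.00188). Btg1 lay at 262, 526, 366, 379 and 460 CPM against 1813, 1624, 818 and 853 CPM (-1.63 ± 0.33). Zfp36 lay at 414, 1111, 772, 813 and 681 CPM against 1503, 2484, 3075 and 1577 CPM (-1.51 ± 0.36). None of these overlap. Egr1 was lower too, at 831, 3654, 1919, 2180 and 2413 CPM against 3998, 6576, 4980 and 4733 CPM (-1.33 ± 0.42, adjusted p = 0.0242). Klf6, a zinc finger factor, was the reverse, at 1384, 3599, 2976, 2545 and 1791 CPM against 638, 924, 1120 and 1274 CPM (1.28 ± 0.35, adjusted p = 0.0106). Egr3 was level within the marked set, at 29.7, 29.3, 30.5, 31.0 and 29.8 CPM, below 69.7, 72.6, 42.6 and 41.6 CPM, but did not pass (-0.86 ± 0.32, adjusted p = 0.0537).

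**Figure D3:**
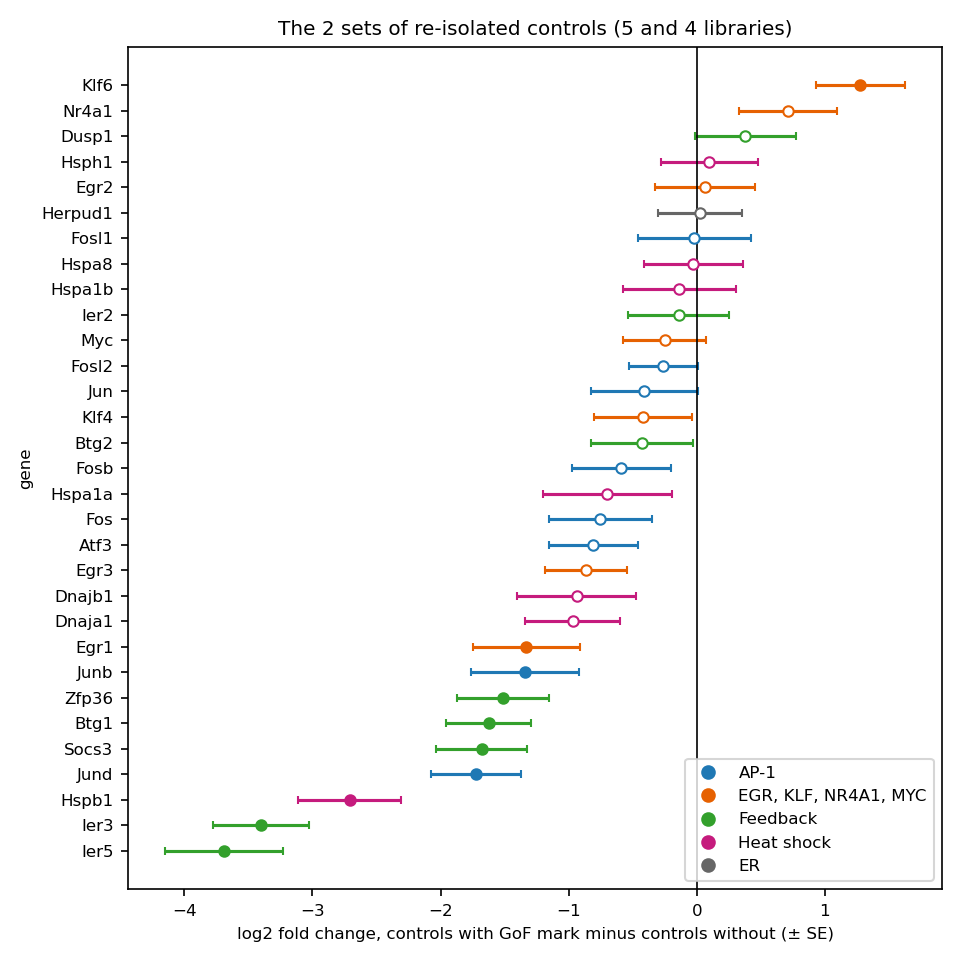
Log2 difference between the 5 re-isolated controls with the GoF mark in the column header and the 4 without (horizontal axis, limma estimate with its standard error as bars) for each of the 31 genes (rows, coloured by class). Filled points passed an adjusted p of 0.05; Klf6 at 1.28 stands on the right and Ier5 at -3.69 at the far left.

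These calls rest on the header mark. The split was made with a difference between the sets already known from these data, so the calls are no independent evidence of one. With the sets taken from the descriptions, which moves control 7 alone, limma called 0 of the 31 genes and 0 of all genes. At an unadjusted p under 0.05 stood 9 of the 31, but the share of all genes at that level was not counted. Without control 1, 3 or 5 the calls of Egr1 and Junb were lost (adjusted p = 0.051 to 0.0788), and without control 2 that of Klf6 (0.0513). Control 1 was the lowest of the 9 controls for 21 of the 31 genes. Other measures moved with the sets. Satellite cell and myogenic markers summed to 1606 to 2912 CPM in the marked and 3216 to 3998 CPM in the unmarked set, without overlap, with 5 of 11 called lower, and 5 of 9 Notch targets were called lower in the marked set. Fibro-adipogenic markers summed to 1627 to 9946 CPM in the marked and 232 to 1142 CPM in the unmarked set, macrophage markers to 80.6 to 661 CPM and 45.8 to 167 CPM, and mitochondrially encoded genes to 4326 to 12071 CPM and 8298 to 20255 CPM. Genes seen with a single read outnumbered those seen with 2 by 4.17 to 5.91 times in the marked and 1.08 to 1.50 times in the unmarked set. That ratio was 4.18 to 6.82 in N1OE, like the marked set, and 1.25 to 1.40 in N1KO, like the unmarked set. The part of these measures in the results was not tested. Of 40 further immediate early genes 14 were lower and 5 higher in the marked set (Gadd45a -2.84, Cebpd -2.50, Gadd45b -2.45, Plk2 2.03), and of 21 other chaperones 4 were lower and 1 higher (Hspb8 -3.37, Serpinh1 2.13).

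Re-isolated N1OE cells were then set against re-isolated controls, since the study asks what molecular differences accompany different engraftment. This comparison and that of N1KO share the 9 control libraries, which also enter the comparison with culture and that of the sets. Of the 31 genes 3 rose and none fell: the HSP110 gene Hsph1, the HSP40 gene Dnajb1 and the antiproliferative gene Btg2. Of all genes 7.06% were called, 3.78% higher and 3.29% lower, and the medians were 0.39 for the list and 0.06 over all genes. The same 3 genes were those in which all 4 N1OE libraries lay above all 9 controls, as in 3.04% of all genes, and in none did they all lie below, as in 1.87%.

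Hsph1 (chromosome 5, 149614287 to 149636376, GRCm38) lay at 661, 1504, 1056 and 1185 CPM in N1OE libraries 1 to 4 and at 137 to 643 CPM with a median of 379 in the 9 controls, a log2 difference of 1.70 ± 0.36 (adjusted p = 0.00568). The lowest N1OE library was just above the highest control. The call held in each of 25 other settings (1.53 to 1.92, adjusted p at most 0.0338), and the difference was 1.65 ± 0.40 against marked and 1.75 ± 0.35 against unmarked controls. Dnajb1 (chromosome 8, 83608193 to 83612653) lay at 5529, 10602, 7496 and 7936 CPM against 543 to 4777 CPM with a median of 3068 (1.66 ± 0.48, adjusted p = 0.0414). Btg2 lay at 2309, 3867, 3031 and 2980 CPM against 399 to 2122 CPM with a median of 1347 (1.29 ± 0.39, adjusted p = 0.0467). Both sit close to the threshold. The Dnajb1 call was lost without any 1 of the N1OE libraries or without control 2, 7 or 9 (adjusted p = 0.056 to 0.136), and the Btg2 call without any 1 of the N1OE libraries or without control 2, 6, 7 or 9 (0.0594 to 0.145). Without control 4, 5 of the 31 genes were called, and 7.73% of all genes.

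Most of the other heat shock genes lay higher without passing. Hspa1a lay at 3599, 5043, 3248 and 2337 CPM in N1OE against 294 to 2634 CPM in controls (1.38 ± 0.50, adjusted p = 0.0987), and Hspa1b at 423, 534, 176 and 213 CPM against 57.1 to 251 CPM (1.28 ± 0.41, adjusted p = 0.0651). Hspa8 lay at 3740, 8861, 5098 and 6401 CPM against 1679 to 5707 CPM (0.76 ± 0.37, adjusted p = 0.231). Their upper controls reach into the N1OE range. Hspb1, at 788, 1149, 663 and 495 CPM, overlapped the marked and lay under all unmarked controls, with a difference of -0.21 ± 0.66 from all 9, 0.99 ± 0.42 from the marked and -1.72 ± 0.36 from the unmarked. The median of the 7 heat shock genes was 1.28. None of 21 other chaperone genes was called (median 0.11, limma), with the 4 smallest p values at Hspd1, Hsp90ab1, Ubb and Bag3.

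**Figure D4:**
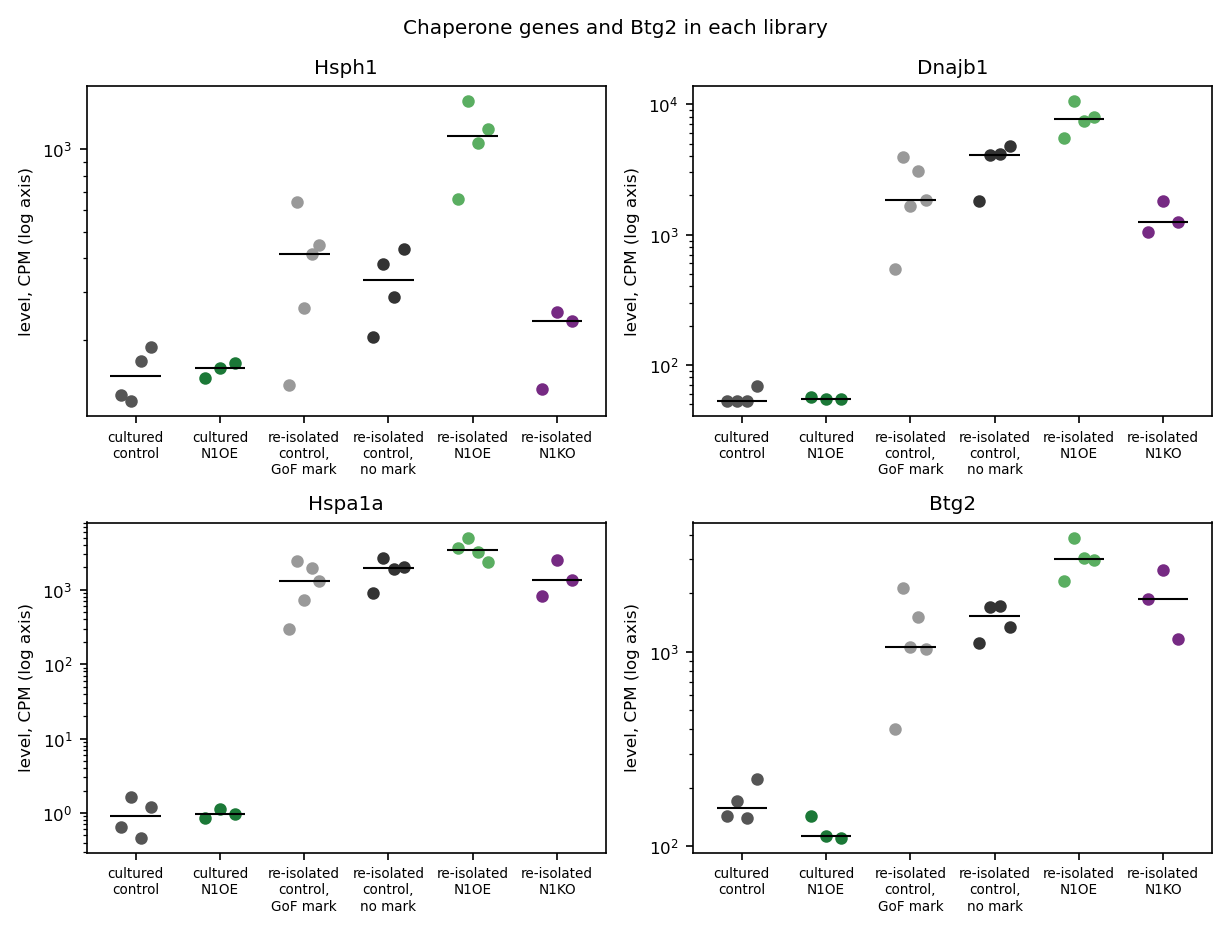
Level in CPM (vertical log axis) of Hsph1, Dnajb1, Hspa1a and Btg2 in each library (points) by group, with the group median as a bar and re-isolated controls split by the GoF mark. The 4 re-isolated N1OE points of Hsph1, Dnajb1 and Btg2 lie above all 9 re-isolated control points, and those of Hspa1a overlap them.

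Apart from Btg2, none of the immediate early genes among the 31 passed in the comparison with all controls, and their values against each set differ. Fos lay at 4630, 9073, 5344 and 3234 CPM in N1OE (-0.12 ± 0.42 against all controls), Jun at 4444, 7141, 4201 and 2396 CPM (0.82 ± 0.41), Egr1 at 3948, 6169, 4139 and 2294 CPM (0.38 ± 0.48) and Atf3 at 477, 829, 485 and 410 CPM (-0.19 ± 0.36). N1OE library 2 was the highest of the 4 for 22 of the 31 genes and library 4 the lowest for 23. Against marked controls alone 5 genes rose, Dnajb1 (2.08 ± 0.47), Hspa1a (1.69 ± 0.51), Hsph1, Btg2 (1.48 ± 0.43) and Egr3 (1.07 ± 0.34), and none fell, where 11.7% of all genes were called, 6.26% higher and 5.47% lower. Against unmarked controls alone 19.5% of all genes were called, 9.33% higher and 10.1% lower. There 6 of the 31 rose, Hsph1, Klf6 (1.22 ± 0.35), Hspa1b (1.20 ± 0.40), Dnajb1 (1.14 ± 0.40), Egr2 (1.12 ± 0.38) and Btg2 (1.05 ± 0.36), and 4 fell, Ier3 (-2.85 ± 0.40), Ier5 (-2.26 ± 0.40), Hspb1 (-1.72 ± 0.36) and Socs3 (-1.37 ± 0.39). Hsph1, Dnajb1 and Btg2 were the genes called against both sets. Ier3 lay at 156, 75.3, 104 and 31.0 CPM and Ier5 at 274, 292, 183 and 96.5 CPM in N1OE, far below the unmarked and near the marked controls.

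Of 40 further immediate early genes 1 rose in N1OE, the cytokine gene Lif (1.77 ± 0.43), and 1 fell, Cxcl1 (-1.43 ± 0.31). Of 12 upstream regulators the kinase gene Mapk3 rose (1.14 ± 0.33) and Mrtfa fell (-1.14 ± 0.32), and none of 19 unfolded protein response genes was called. Endothelial markers summed to 44.5 to 87.4 CPM in N1OE against 6.61 to 39.3 CPM in controls, without overlap, with 2 of 7 called higher. Macrophage markers summed to 29.6 to 153 CPM in N1OE against 45.8 to 661 CPM in controls, fibro-adipogenic markers to 882 to 1528 CPM against 232 to 9946 CPM, and mitochondrially encoded genes to 2845 to 11411 CPM against 4326 to 20255 CPM. Their part was not tested.

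Against all re-isolated controls N1KO cells gave no call among the 31 genes (limma), where 0.657% of all genes were called, 0.466% higher and 0.191% lower. Limma-voom also gave 0 calls, where 2.01% of all genes were called. At an unadjusted p under 0.05 stood 3 of the 31 genes with limma and 4 with limma-voom. The share of all genes at that level was not counted. The medians were 0.39 for the list and 0.01 over all genes. The list median turned with the controls used, at 0.55 against marked and -0.19 against unmarked ones. In Herpud1, whose product helps degrade proteins of the endoplasmic reticulum, all 3 N1KO libraries (351, 293 and 324 CPM) lay below all 9 controls (440 to 666 CPM), as in 0.991% of all genes (2.83% in the other direction, with none of the 31), with a difference of -0.69 ± 0.34 that did not pass (adjusted p = 0.446). Against marked controls alone 4 genes rose, where 3.92% of all genes were called, 2.59% higher and 1.33% lower: Ier3 (3.03 ± 0.44), Ier5 (2.64 ± 0.53), Jund (1.92 ± 0.42) and Zfp36 (1.50 ± 0.40). Against unmarked controls alone 1 fell, Hspb1 (-1.31 ± 0.39, adjusted p = 0.0444), where 7.29% were called, 3.88% higher and 3.41% lower. In N1KO Ier3 lay at 560, 294 and 514 CPM, Ier5 at 318, 298 and 936 CPM, Jund at 43.8, 64.4 and 68.8 CPM and Zfp36 at 1923, 2513 and 1750 CPM. The values of all 4 genes overlap the unmarked range. Endothelial markers summed to 44.6 to 133 CPM in N1KO against 6.61 to 39.3 CPM in controls, with 4 of 7 called higher. Macrophage markers summed to 173 to 607 CPM against 45.8 to 661 CPM and fibro-adipogenic markers to 4664 to 14386 CPM against 232 to 9946 CPM, with none of 8 and none of 7 called (limma) and all estimates above 0. Their part was not tested.

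N1OE and N1KO cells, the opposite ends of Notch1 activity by design, were compared within the fit of all re-isolated groups. The 9 controls enter the spread but not the difference. Of 9 Notch targets 5 were called higher in N1OE than in N1KO, where 2.92% of all genes were higher. Against all re-isolated controls 1 of the 9 was called higher in N1OE, where 3.78% of all genes were higher. None of the 9 was called in N1KO against those controls (limma). Genes seen with a single read outnumbered those seen with 2 by 4.18 to 6.82 times in N1OE, like the marked controls. That ratio was 1.25 to 1.40 in N1KO, like the unmarked controls. Genotype and this property of the libraries cannot be told apart here. Of the 31 genes 3 were higher and 1 lower in N1OE, where 7.35% of all genes were called, 2.92% higher and 4.43% lower. Hsph1 lay at 133, 255 and 236 CPM in N1KO libraries 1 to 3, all under the 661 CPM of the lowest N1OE library, a log2 difference of 2.40 ± 0.45 (adjusted p = 0.00264) that was called in each of 15 other settings. Dnajb1 lay at 1053, 1818 and 1239 CPM in N1KO, below the 5529 CPM of the lowest N1OE library (2.53 ± 0.62, adjusted p = 0.015), and its call was lost without N1KO library 1 (adjusted p = 0.0791) and without the filter on low values. Herpud1 was higher in N1OE, at 589, 370, 1551 and 1104 CPM (1.28 ± 0.39, adjusted p = 0.0473), and lost its call in 9 of 15 other settings: without any 1 of the N1KO libraries, without N1OE library 3 or 4, without the filter, with median ratio scaling, with the replicate block and with only these 2 groups in the fit. Klf4 was lower, at 69.0, 111, 85.3 and 40.1 CPM in N1OE against 91.5, 212 and 496 CPM (-1.57 ± 0.46, adjusted p = 0.0408), with overlapping ranges, a call lost without N1KO library 2 or 3 or N1OE library 1, 3 or 4, and a difference of -0.96 without N1KO library 3. With only these 2 groups in the fit 12.0% of all genes were called, and of the 31 genes Hsph1 and Dnajb1 were higher and Klf4 and Ier3 lower (Ier3 with adjusted p = 0.000732).

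Without overlap, 6 genes were higher in N1OE than in N1KO (Dnajb1, Egr2, Herpud1, Hspa8, Hsph1 and Ier2) and 4 lower (Ier3, Ier5, Socs3 and Zfp36), each direction as in 11.7% of all genes. All 4 lower genes were also lower without overlap in marked than in unmarked controls. That holds for 13.0% of all genes. The share among all genes lower without overlap in N1OE than in N1KO was not counted, so the 4 cannot be weighed. Klf6, the only gene of the list higher there without overlap, is not among the 6. Hspa8 lay at 2992, 3344 and 3635 CPM in N1KO (0.79 ± 0.48), Hspa1a at 819, 2480 and 1339 CPM (1.30 ± 0.63) and Hspa1b at 148, 307 and 118 CPM (0.79 ± 0.52), none of which passed. Fos lay at 8994, 8922 and 7475 CPM in N1KO, Egr1 at 6120, 5503 and 3085 CPM, Jun at 3200, 3374 and 2481 CPM, Junb at 3890, 4724 and 3985 CPM and Atf3 at 475, 942 and 1124 CPM, and none of these passed either. The median of the list was -0.00 against 0.07 over all genes, with 1.28 for Herpud1, 0.79 for the heat shock genes and -0.51 for the AP-1 genes. Of 40 further immediate early genes none was higher and 6 were lower, among them Cxcl1 (-2.30), Klf2 (-2.21), the prostaglandin synthase gene Ptgs2 (-2.09) and Nfkbia (-1.70). Of 21 other chaperones 1 was higher (Hspa4l, an HSP110 relative, 1.42 ± 0.39), and of 19 unfolded protein response genes 1 (Creld2, 1.49 ± 0.42). Fibro-adipogenic markers summed to 4664 to 14386 CPM in N1KO against 882 to 1528 CPM in N1OE, and macrophage markers to 173 to 607 CPM against 29.6 to 153 CPM. Their part was not tested.

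In culture, where both groups share the kit, N1OE was compared with control. All 4 controls and N1OE library 1 carry the GoF mark and N1OE libraries 2 and 3 do not, so the mark and the genotype cannot be told apart for those 2, and the marked libraries alone hold only 1 N1OE library. Of 30 genes tested (Fosb was too low) 1 rose and 4 fell: Ier5 rose, and Fosl2, Hspb1, Socs3 and Btg1 fell. Of all 12314 genes 10.8% were called, 4.73% higher and 6.03% lower. N1OE libraries 2 and 3, far closer to each other than to library 1, count here as separate replicates. With them averaged as 1 sample, 1.29% of all genes were called, 0.311% higher and 0.982% lower. Of the list 2 genes were then called, both lower. The medians were -0.43 for the list and 0.07 over all genes. At an unadjusted p under 0.05 (limma) stood 16 of the 30 genes, but the share of all genes at that level was not counted. In 12 genes all 3 N1OE libraries lay below all 4 controls, as in 13.7% of all genes, and in 2 above, as in 21.1%.

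Fosl2, which encodes the AP-1 protein Fra-2 (chromosome 5, 32135801 to 32157842, GRCm38), fell to 13.7, 16.4 and 14.6 CPM in N1OE libraries 1 to 3 from 55.4, 97.9, 65.2 and 139 CPM in controls (-2.49 ± 0.31, adjusted p = 0.00628). Hspb1 (chromosome 5, 135887919 to 135889563) fell to 32.9, 33.3 and 35.4 CPM from 92.3, 114, 74.2 and 99.5 CPM (-1.47 ± 0.15, adjusted p = 0.00331). The N1OE libraries of both genes lie close together and far under the lowest control, the marked N1OE library 1 included, and both calls held in each of 16 other settings. Socs3 lay at 11.2, 10.3 and 7.41 CPM (-1.11 ± 0.25, adjusted p = 0.0368), Btg1 at 102, 81.1 and 82.9 CPM against 119, 157, 123 and 186 CPM (-0.71 ± 0.18, adjusted p = 0.0485) and Ier5 at 131, 114 and 119 CPM (0.68 ± 0.12, adjusted p = 0.0195). These 3 calls were each lost without any 1 of the N1OE libraries, that of Socs3 also without control 2 or 4 and that of Btg1 without control 2 or 3 (adjusted p = 0.0509 to 0.187).

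The other AP-1 and Egr genes did not pass in culture. Fos lay at 5.20, 3.34 and 2.03 CPM, below all controls (-2.08 ± 0.78, adjusted p = 0.12), Jun at 123, 98.0 and 94.9 CPM (0.83 ± 0.32, adjusted p = 0.129), Junb at 24.1, 31.3 and 29.5 CPM (-0.73 ± 0.25) and Jund at 25.7, 19.7 and 35.2 CPM. Egr1 lay at 106, 42.5 and 41.4 CPM, within the controls (-0.41 ± 0.75), and Atf3 at 0.347, 0.189 and 0.152 CPM (-2.16 ± 0.94, adjusted p = 0.162). Control 4 was the highest of the 4 cultured controls for 21 of the 31 genes. Klf6 lay at 71.7, 107 and 113 CPM, Klf4 at 15.4, 8.56 and 8.73 CPM, Zfp36 at 13.9, 15.1 and 15.2 CPM, Btg2 at 143, 113 and 111 CPM, Ier3 at 4.01, 6.10 and 5.94 CPM and Herpud1 at 26.8, 25.6 and 28.1 CPM, and none of these passed. Of the heat shock genes other than Hspb1, none moved by more than 0.14 in log2: Hspa1a lay at 0.842, 1.13 and 0.965 CPM, Hspa1b at 3.12, 5.47 and 4.93 CPM, Hspa8 at 1801, 2046 and 2038 CPM, Dnajb1 at 56.1, 54.8 and 54.6 CPM and Hsph1 at 145, 158 and 165 CPM.

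**Figure D5:**
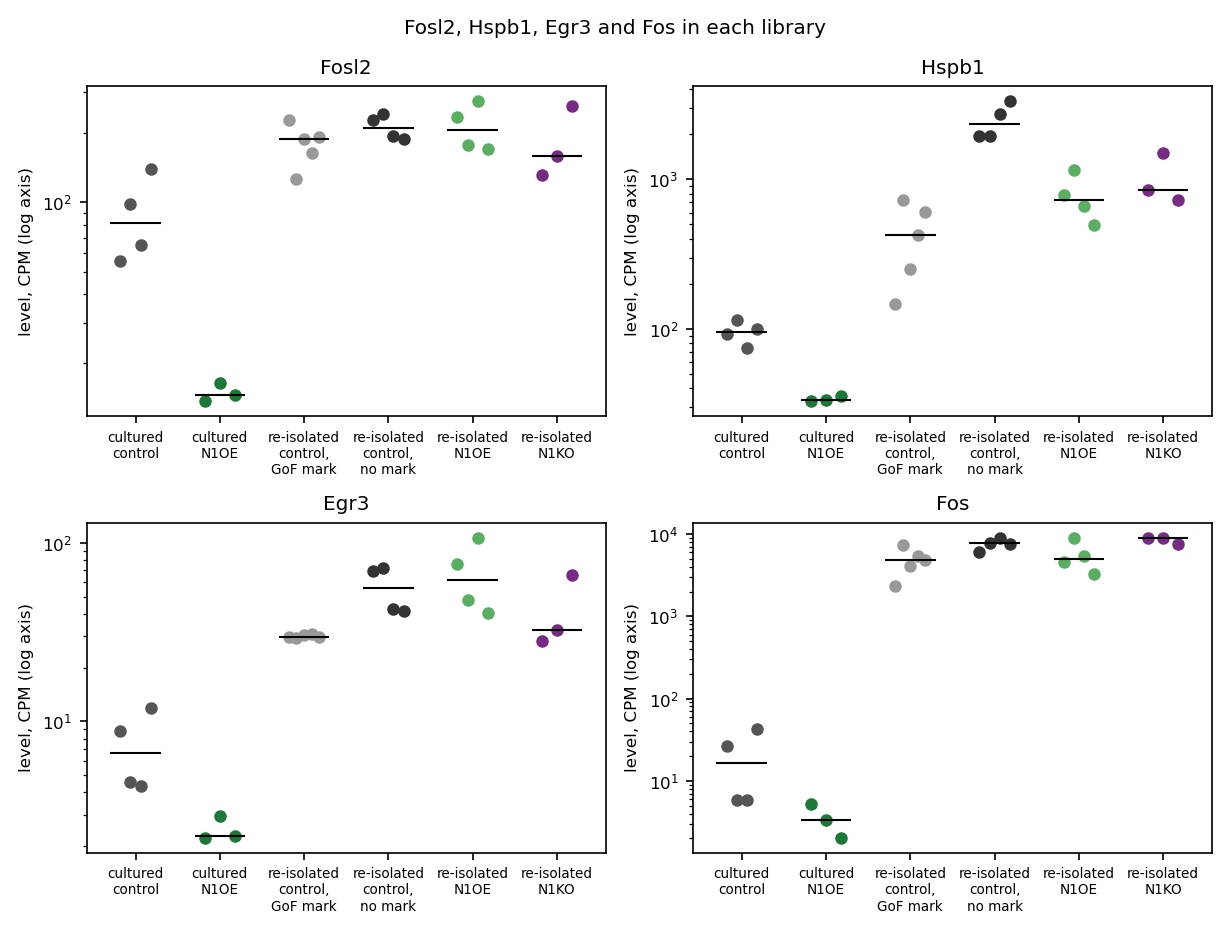
Level in CPM (vertical log axis) of Fosl2, Hspb1, Egr3 and Fos in each library (points) by group, with the group median as a bar and re-isolated controls split by the GoF mark. In culture the 3 N1OE points of Fosl2 (13.7 to 16.4 CPM) and Hspb1 (32.9 to 35.4 CPM) lie under all 4 control points, and after re-isolation N1OE and control points of Fosl2 overlap.

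Of 39 further immediate early genes 1 rose in cultured N1OE, Sgk1 (2.03 ± 0.24), and 7 fell, among them Ccn2, a matricellular gene driven by serum response and YAP factors (-4.66 ± 0.89), Ptgs2 (-2.20 ± 0.31) and Maff, a small partner of AP-1 proteins (-1.94 ± 0.31). Of 21 other chaperones 2 fell, Cryab (-1.90 ± 0.41) and Dnajb4 (-0.42 ± 0.09). Of 19 unfolded protein response genes 2 fell, Trib3 (-2.42 ± 0.37) and Chac1 (-2.37 ± 0.56), and of 12 upstream regulators 1, Mrtfa (-0.63 ± 0.09). Of 8 tested Notch targets 6 rose, Nrarp by 5.10 and Hey1 by 4.73 among them. Fibro-adipogenic markers summed to 13.7 to 16 CPM in N1OE against 42.6 to 274 CPM in controls, and the part of that in the result was not tested.

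The difference between the N1OE effects after re-isolation and in culture was tested as an interaction over the 4 groups, with kit and setting joined. Of the 31 genes 2 had a more positive effect after re-isolation and none a more negative one, where 3.22% of all genes were called, 2.31% in the first and 0.913% in the second direction. Fosl2 differed by 2.62 ± 0.38 (adjusted p = 0.000325): it fell by 2.49 in culture, and after re-isolation, where N1OE lay at 233, 177, 275 and 170 CPM against 126 to 241 CPM in controls, the difference was 0.13 ± 0.25. That call held in each of 29 other settings. Egr3 differed by 2.11 ± 0.54 (adjusted p = 0.031), from 8.78, 4.58, 4.32 and 11.9 CPM in cultured controls and 2.23, 2.96 and 2.29 CPM in cultured N1OE, and 75.8, 47.9, 107 and 40.3 CPM in re-isolated N1OE. The Egr3 call was lost in 12 of 29 other settings, without any 1 of the cultured N1OE libraries, cultured control 1 or 4, or re-isolated N1OE library 1 or 3 among them (highest adjusted p = 0.205, with limma-voom). Without re-isolated control 4, 4 of the 31 genes were called, and 3.35% of all genes. The median difference was 1.02 for the list and 0.04 over all genes. With marked controls alone 6 genes were called, all more positive (Fosl2, Egr3, Hspb1, Btg1, Btg2 and Dnajb1), where 7.05% of all genes were called, 4.76% in that direction and 2.29% in the other, and with unmarked controls alone 6 (Fosl2, Klf6, Btg2, Hsph1 and Nr4a1 more positive and Ier5 more negative), where 12% were called, 6.81% and 5.2%. Hspb1, which fell in culture, differed by 1.26 ± 0.97 with all controls (adjusted p = 0.618) and by 2.46 ± 0.55 with the marked ones.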

How the data were processed

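Groups come from sample titles, and the control sets from column headers. The submitters' processing notes name Trimmomatic 0.33, FastQC, featureCounts, edgeR and the build mm10. The aligner and annotation are not given in the sources used here. Per the table's values, the authors deposited log2 CPM to which a prior count had been added: its minimum of -4.19 stands for 0 reads, so differences of low genes are understated. Taken off the log scale, 100% of the values checked were whole multiples of 1 read in their library (tolerance 0.05). The check covered values above 0 reads and left out the highest ones. Reads recovered in this way gave the CPM printed here. Totals of 11637817 to 29154176 reads set the counting precision.

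The deposited log2 values were tested with limma 3.58.1 (R 4.3.3, trended eBayes, two-sided), keeping genes that reached 1 CPM in 3 or more of the fitted libraries. P-values were adjusted after Benjamini-Hochberg over all genes tested, threshold 0.05. One fit held the cultured groups, another all re-isolated groups, and a further one split the controls into both sets beside N1OE and N1KO. Scripts were tested on simulated data. The members, the gene lists and the split of the controls by header mark were chosen with earlier results of these data known. Levels are printed for genes past the threshold in any comparison within culture or within re-isolated cells. They are also printed for Fos, Jun, Egr1, Atf3, Hspa1a, Hspa1b, Hspb1 and Hspa8. They stand by library or as a group's range, and not for every group. Of other lists at most 4 genes a comparison, those with the smallest p, are named, and of Notch targets 2 called ones. Library values of Egr3 were added after they were seen, as was the search for pairs of heat shock units. Same-numbered libraries did not deviate together (correlations of -0.15 to 0.27), so numbers were not taken as pairs. Alternatives were pseudocounts of 1 and 5 CPM, other filters, median ratio scaling, limma-voom, a replicate block, other control sets and leaving out each library. Gene coordinates are from GENCODE M21 (GRCm38) and sequences from RefSeq (GRCm38.p6).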

Additional observations from a re-analysis of the deposited data

Results flagged for a closer look

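In 93 groups of 4 or 9 libraries (31 genes in 3 groups), 6 had a library far from the others, where chance alone flags about 1 in 20. Cultured control 4 was high for Dnajb1 (68.8 CPM, the next library at 53.0) and for Zfp36 (30.8 CPM, next 20.2). Re-isolated control 1 was low for Atf3 (222 CPM, next 462), Btg2 (399, next 1040), Dnajb1 (543, next 1642) and Jun (842, next 1881). Without control 1 the difference between control sets lost its calls for Egr1 and Junb, as given above.

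The N1OE effect differed between re-isolated and cultured cells for Fosl2 (2.62 in log2) and Egr3 (2.11), both by the interaction test.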

How the results depend on the processing

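Counts of called genes among the 31 moved most with the choice of controls and with single libraries. The share of all genes called moved as well and is given beside them. For N1OE against re-isolated controls, 3 calls became 5 with marked and 10 with unmarked controls only, 1 without a filter, 1 with the replicate block and 1 with only the 2 groups in the fit. In that order the share of all genes went from 7.06% to 11.7%, 19.5%, 3.28%, 3.14% and 6.24%. Leaving out 1 library gave 1 to 5, with 4 to 7.73% of all genes called. For N1KO against controls, 0 became 4 with marked, 1 with unmarked and 3 with controls marked in the descriptions. The share of all genes went from 0.657% to 3.92%, 7.29% and 1.96%. The 4 calls of N1OE against N1KO became 1 without a filter, 2 with the block and 2 to 4 without 1 library. The share of all genes went from 7.35% to 3.92%, 5.03% and 3.31 to 6.64%. The 10 calls between control sets became 0 by the descriptions and 8 to 12 without 1 library. The share of all genes went from 22.9% to 0% and 16.3 to 24%. In culture, 5 became 3 without a filter, 3 with limma-voom, 8 with the block, 2 without both replicates 1, 2 with N1OE 2 and 3 averaged, and 2 to 6 without 1 library. In that order the share of all genes went from 10.8% to 3.49%, 7.77%, 13%, 1.63%, 1.29% and 1.29 to 14.5%. For the difference of N1OE effects, 2 became 1 with log2(CPM + 5), without a filter, with limma-voom and with the block, 6 with either control set, and 1 to 4 without 1 library. The share of all genes went from 3.22% to 4.33%, 1.74%, 1.57% and 2.23% in the first 4 settings. It was 7.05% with marked and 12% with unmarked controls, and 1.65 to 3.5% without 1 library. The 29 calls between re-isolated and cultured controls stayed at 27 to 30, with 37.7 to 65.8% of all genes called. Same-numbered libraries are not known to be pairs, and the block is given for its counts only. No gene called with all libraries in use changed sign in any setting, while values not called did, such as Hspb1 in N1OE and in N1KO by control set. For single genes, 968 values under other settings kept direction and call, and 113 kept the direction and lost the call. The cause of each shift was not tested. Precision of low genes is limited: 3 reads stand for 0.258 CPM in the smallest library.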
